A study of Homo sapiens with 17 samples.

Results

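*DPPA5* lies on chromosome 6 beside a group of genes known from oocytes and early embryos. The 6 genes described here are *DPPA5*, *KHDC3L*, *OOEP*, *DDX43*, *KHDC1* and *KHDC1L*. They lie within the 450 kb of chromosome 6 that begin at base 73200001 (GRCh38). They are 6 of 20033 protein-coding genes whose promoters were measured. The members were chosen with earlier results of these data known, and other genes of the same interval are not among them. The interval holds 900 of 6176550 tiles of 500 bp in which H3K4me1 was quantified, and is overlapped by 82 of 860389 HindIII fragments, the restriction fragments between which promoter interactions were mapped. The interaction lists carry no gene names, so a fragment was assigned to a gene when a GENCODE v44 transcript start, or the 1000 bp upstream of it, fell inside. Of 8 fragments with a member promoter, 4 were marked as baited, and together these contacted 19 other fragments.

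The cells were naive and primed PSCs of the human embryonic stem cell line H9 NK2, an established line in which both states share the same genome. Naive PSCs were kept in t2iL+PKCi on Matrigel, a medium that contains the MEK inhibitor PD0325901, the GSK3 inhibitor CHIR99021, human LIF and the PKC inhibitor Go6983, and primed PSCs were kept in TeSR-E8 on Vitronectin. All cultures were held at 5% O2 and 5% CO2. The medium and coating differed together with the cell state, so their effects cannot be told apart. Promoter Capture Hi-C (PCHi-C) was available as 1 interaction list per cell type, each made by the authors from 2 replicates, Hi-C as 1 library per cell type, and H3K4me1 CUT&RUN as 2 naive and 3 primed libraries. The files used here hold no RNA measurement, and ChIP-seq of NANOG, SOX2 and input was not analysed here.

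DPPA5 is a KH-domain RNA-binding protein known as a marker of pluripotent cells and germ cells. KHDC3L and OOEP are KH-domain proteins that the oocyte stores for the subcortical maternal complex, a protein assembly needed for the first divisions of the embryo. DDX43 is a DEAD-box RNA helicase with a KH domain, best known from the male germline and tumours, and KHDC1 and KHDC1L belong to the same KH-domain family. H3K4me1 is a histone mark of enhancers and of the flanks of promoters. PCHi-C captures ligated pairs of restriction fragments in which 1 end holds a promoter, and CHiCAGO scores each pair against the number of reads expected at its distance.

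From the low to the high coordinate, *KHDC1L* (chr6:73223544-73225496, minus strand), *KHDC1* (chr6:73241314-73263196, minus strand, with further starts up to 73310365), *DPPA5* (chr6:73353063-73354276, minus strand), *KHDC3L* (chr6:73362658-73364171, plus strand), *OOEP* (chr6:73368555-73369897, minus strand) and *DDX43* (chr6:73394828-73417566, plus strand) follow each other. The starts of *KHDC3L*, *OOEP* and *DDX43* lie 8.4, 15.6 and 40.6 kb from that of *DPPA5*. *CGAS*, *MTO1*, *EEF1A1* and most of *SLC17A5* fill the rest of the interval.

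The promoters of the 5 members below are shown because the H3K4me1 values that follow are read around them. They are RefSeq windows on GRCh38.p14, 250 bases before to 50 bases after the start, in the direction of the gene, and 7 such windows matched the members (*KHDC1* has 2). Capitals mark matches on either strand to the GC box of SP and KLF factors (GGGCGG), the octamer of POU factors (ATGCAAAT), a SOX motif (CATTGT), the TATA box (TATAAA) and the HindIII site (AAGCTT).
*DPPA5*, chr6:73354227-73354526: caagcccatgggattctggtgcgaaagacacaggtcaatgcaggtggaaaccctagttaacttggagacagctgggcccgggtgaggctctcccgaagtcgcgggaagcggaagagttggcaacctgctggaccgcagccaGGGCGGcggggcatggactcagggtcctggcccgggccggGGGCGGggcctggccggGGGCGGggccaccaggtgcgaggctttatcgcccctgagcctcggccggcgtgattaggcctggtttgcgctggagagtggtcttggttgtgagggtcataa
*KHDC3L*, chr6:73362408-73362707: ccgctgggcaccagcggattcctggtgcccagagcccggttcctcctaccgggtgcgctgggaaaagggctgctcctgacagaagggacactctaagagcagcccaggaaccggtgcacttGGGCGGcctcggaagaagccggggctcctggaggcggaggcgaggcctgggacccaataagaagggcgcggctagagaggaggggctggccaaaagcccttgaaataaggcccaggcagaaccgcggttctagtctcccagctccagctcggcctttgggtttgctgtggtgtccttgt
*OOEP*, chr6:73369848-73370147: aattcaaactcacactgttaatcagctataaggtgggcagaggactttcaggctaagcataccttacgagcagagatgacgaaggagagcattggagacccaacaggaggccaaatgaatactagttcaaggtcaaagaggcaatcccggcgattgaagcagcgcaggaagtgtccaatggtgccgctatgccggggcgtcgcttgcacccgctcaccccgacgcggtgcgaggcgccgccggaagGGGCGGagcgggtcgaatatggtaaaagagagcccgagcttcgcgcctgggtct
*DDX43*, chr6:73394578-73394877: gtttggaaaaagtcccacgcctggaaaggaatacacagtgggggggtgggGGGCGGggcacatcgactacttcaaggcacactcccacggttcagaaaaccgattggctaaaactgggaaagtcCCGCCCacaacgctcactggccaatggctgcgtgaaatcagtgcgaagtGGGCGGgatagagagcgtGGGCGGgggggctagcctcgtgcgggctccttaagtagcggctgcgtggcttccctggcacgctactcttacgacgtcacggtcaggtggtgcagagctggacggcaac
*KHDC1L*, chr6:73225447-73225746: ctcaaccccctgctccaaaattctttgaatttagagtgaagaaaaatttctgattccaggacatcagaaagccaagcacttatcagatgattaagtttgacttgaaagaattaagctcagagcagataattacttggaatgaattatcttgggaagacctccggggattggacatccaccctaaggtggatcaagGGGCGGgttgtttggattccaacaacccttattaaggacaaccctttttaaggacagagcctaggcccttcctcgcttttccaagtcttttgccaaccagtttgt

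The GC box occurred in 6 of the 7 member windows and in 45% of 35116 RefSeq promoter windows. It occurred 3 times in the *DPPA5* window, starting 109, 69 and 52 bases before the start, and 4 times in that of *DDX43*. No member window held the octamer, the SOX motif or the TATA box, which occurred in 1.77%, 10.8% and 11.5% of all windows, and none was cut by HindIII (5.84% of all windows). The *DPPA5* window had a GC content of 66% and 20 CpG dinucleotides, against medians of 58.7% and 14 over all windows. *KHDC1L* stood at the other end of the members, with a GC content of 42.7% and 3 CpG dinucleotides. These matches are letters in a window and say nothing about binding.

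To find which DNA the member promoters contacted in each cell type, the interactions that touched the 4 member baits were counted. The naive list held 23 and the primed list 3, and 2 were in both. All lines of each list had a CHiCAGO score of at least 5, and the lists as a whole held 79330 naive and 88985 primed interactions. The listed naive interactions of the member baits carried 1061 reads and the listed primed ones 43. Reads of pairs that are missing from a list are not in these sums, so the sums follow the counts of listed interactions. With 1 list per cell type, no test between the cell types was possible, and an interaction that is missing from a list had a score under 5 or was not covered.

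*DPPA5* and *KHDC3L* shared 1 bait, a fragment of 13079 bp (chr6:73353243-73366321), so their contacts cannot be told apart. This fragment had 5 contacts in naive PSCs and none in primed PSCs. Of all 15982 baited fragments in the lists, 15.0% had contacts in naive PSCs and none in primed PSCs, so the absence on its own was a common pattern. The contact with the most reads was the intergenic fragment chr6:73346815-73349571, which lies beyond the end of *DPPA5*, with 192 reads and a score of 9.79. The next was the *OOEP* bait, with 185 reads and a score of 9.1. The fragment of the *DDX43* start followed with 51 reads and a score of 5.99. The other 2 contacts were neighbouring fragments in *SLC17A5*, 243.7 and 245.6 kb away, with 10 reads each and scores of 5.29 and 5.33.

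The *OOEP* bait (chr6:73368323-73389342) had 16 naive contacts and 1 primed contact. A surplus of 15 or more naive over primed contacts was found at 1.2% of all baited fragments, where the median was 3.0 contacts in each cell type. Its highest score in naive PSCs, 11.55 with 99 reads, was to the fragment that holds the end of *DPPA5* (chr6:73349572-73353242). The adjoining fragment chr6:73346815-73349571, already contacted by the *DPPA5* and *KHDC3L* bait, had 77 reads and a score of 9.28. Together with 4 further fragments between *KHDC1* and *DPPA5*, with scores from 5.15 to 6.9, these made a row of contacts along the DNA downstream of *DPPA5*. The bait also contacted the upstream start of *KHDC1* (35 reads, score 5.83), 2 fragments within the longer *KHDC1* transcripts (19 and 26 reads, scores 5.35 and 5.92), the *DDX43* fragment (97 reads, score 6.73) and, 1910.1 kb away, a fragment with the promoter of *TMEM30A*, a lipid flippase subunit (5 reads, score 5.63). Its remaining naive contacts were the bait within *MTO1* and *EEF1A1* (22 reads, score 5.65), the nearer of the *SLC17A5* fragments of the *DPPA5* bait (10 reads, score 5.14) and a fragment just upstream of *SLC17A5* (10 reads, score 6.4). The single contact found in both cell types was the *SLC17A5* promoter, 274 kb away, with 11 naive reads (score 5.45) and 23 primed reads (score 5.07).

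The fragment of the *DDX43* start (chr6:73390262-73403165) carried no bait mark in either list, so it could appear only as a partner of other baits. It had 4 contacts in naive PSCs, from the *DPPA5* and *KHDC3L* bait, the *OOEP* bait, a bait within *MTO1* and *EEF1A1* (28 reads, score 11.61) and the *SLC17A5* bait (12 reads, score 6.64). In primed PSCs the *SLC17A5* contact was the one listed, with 19 reads and a score of 5.71.

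*KHDC1* was split between baits at its starts. The bait at the downstream start (chr6:73260058-73264385) had 2 contacts in each cell type, and 1 of them, chr6:72616555-72618294 in *KCNQ5-DT* beside the potassium channel gene *KCNQ5*, was shared, with 10 naive and 11 primed reads and scores of 7.37 and 5.55. The other was chr6:72612671-72616554 in the naive list (8 reads, score 5.29) and chr6:72421254-72424253 in the primed list (9 reads, score 5.21). The bait at the upstream start (chr6:73309518-73311065) had 2 naive contacts and no primed contact. 1 was to the *OOEP* bait and 1, with 23 reads and a score of 6.35, to chr6:73197343-73204308 at the end of *KCNQ5*, on the far side of *KHDC1L*. The fragment of the *KHDC1L* start (chr6:73217307-73229005) was in neither list, so no contact can be given for it.

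**Figure D1:**
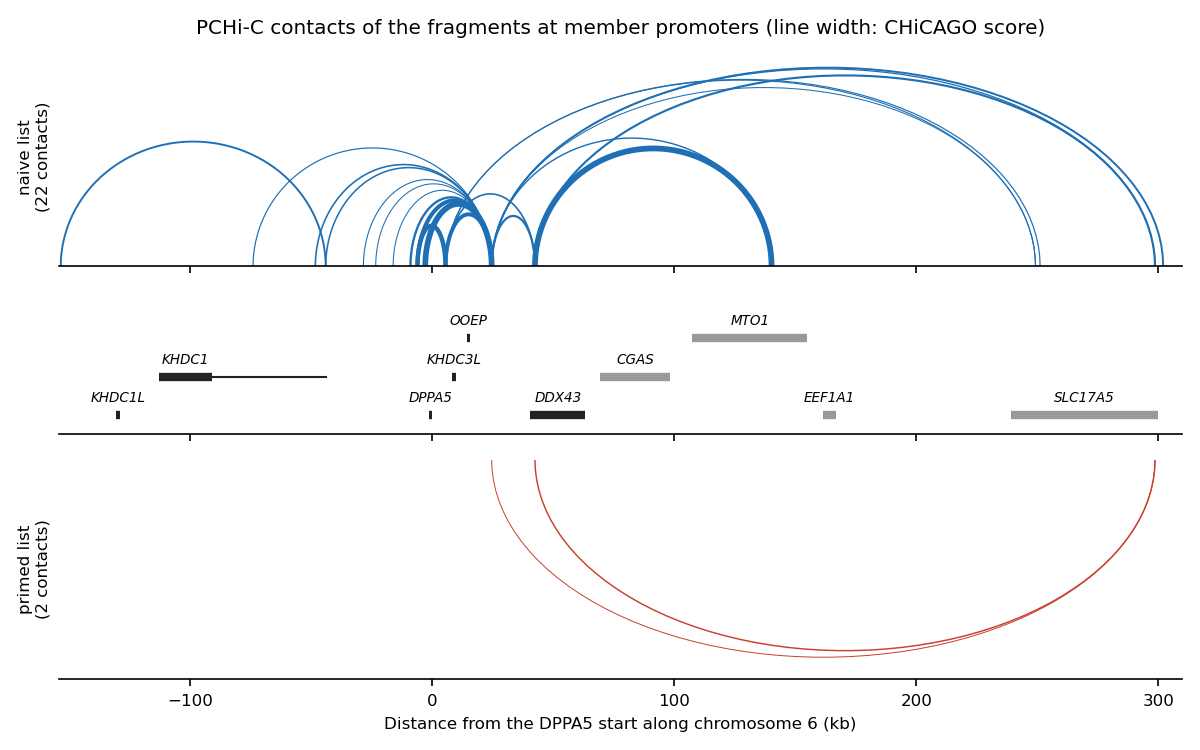
PCHi-C contacts of the fragments at member promoters, drawn as arcs from fragment middle to fragment middle, against the distance from the *DPPA5* start in kb, with line width for the CHiCAGO score. Dark bars are the members, grey bars other genes, and the thin line the longer *KHDC1* transcripts. The naive list (above, 22 contacts in the range drawn) links the *DPPA5*, *KHDC3L*, *OOEP* and *DDX43* fragments with each other and with the DNA on both sides, and the primed list (below) holds 2 contacts to the *SLC17A5* promoter.

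18 of the 23 naive contacts had both ends in the interval, and none of the 3 primed contacts had. The naive contacts spanned 11.6 to 1910.1 kb with a median of 72.8 kb. The canonical starts of the translation factor gene *EEF1A1* and of *MTO1*, a mitochondrial tRNA modifier, lie on fragments that were not marked as baited. The bait within *MTO1* and *EEF1A1* was assigned to them by other transcript starts. This bait kept contacts in both cell types, with 19 in naive PSCs, 11 in primed PSCs and 9 shared. Its 2 highest-scoring primed contacts were to the *SLC17A5* fragments chr6:73602876-73604116 (54 reads, score 11.67) and chr6:73604117-73606678 (55 reads, score 12.63). Both were also among its naive contacts, with 14 reads (score 5.26) and 17 reads (score 7.04). The *DPPA5* and *KHDC3L* bait contacted the same fragments in naive PSCs.

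In Hi-C, which captures all pairs without selecting promoters, contacts between different 100 kb bins of the interval were not higher in naive PSCs. At distances up to 200 kb the bins shared 634 contacts in the naive library and 845 in the primed library. After scaling by all contacts of that distance on chromosome 6 (929527 and 1121574), the ratio of naive to primed was 0.905, with a 95% exact Poisson interval of 0.815 to 1. The bin that holds *DPPA5*, *KHDC3L*, *OOEP* and the start of *DDX43* also holds the upstream starts of *KHDC1*. With the bin of *KHDC1L* and the downstream start of *KHDC1* it had 160 naive and 191 primed contacts (ratio 1.01, 0.814 to 1.25). With the bin of *MTO1* and *CGAS* it had 117 and 171 (0.826, 0.647 to 1.05). The intervals of 2 pairs lay below 1, both of them with the bin of *KHDC1L* and the downstream start of *KHDC1*. With the bin of *CGAS* and *MTO1* this bin had 27 and 58 contacts (0.562, 0.342 to 0.901), and with that of *SLC17A5* 19 and 44 (0.521, 0.287 to 0.911). The second pair lies 400 kb apart but was scaled by the same totals up to 200 kb, so its ratio is not matched for distance. These intervals cover counting error alone, a bin is far wider than the fragments above, and 1 library per cell type gives no replicate check. Contacts within a bin were not counted. The listed contacts among the *DPPA5* and *KHDC3L*, *OOEP* and upstream *KHDC1* fragments, and with the DNA just downstream of *DPPA5*, lie within 1 bin. The Hi-C counts given here therefore cannot show them.

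**Figure D2:**
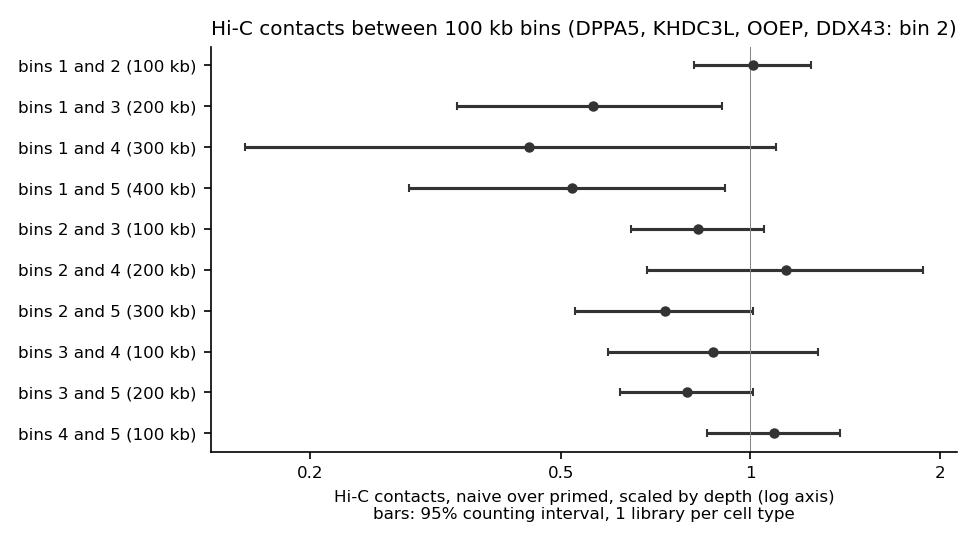
Hi-C contacts between 100 kb bins of the interval, as the ratio of naive to primed after scaling by depth on a log axis, with bars for the 95% counting interval. Bins are numbered from the low coordinate. Pairs 300 and 400 kb apart were scaled by the totals up to 200 kb as well, so their ratios are not matched for distance. Most intervals include 1, and those of bins 1 and 3 and bins 1 and 5 lie below it.

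H3K4me1 was then compared between the cell types along the interval. The DNA around the members carried the mark in naive PSCs and little of it in primed PSCs, but this held for most of the interval and not for the member genes alone. Fitted over all tiles with limma, with no filter on low values, 424 of the 900 tiles were higher in naive PSCs, against 4.18% of all tiles in the genome, and 0 were lower, against 3.77% (2 at an unadjusted p under 0.05). Both naive libraries lay above every primed library in 695 of the 900 tiles, against 18.0% of all tiles. The reverse held in 3 tiles, against 8.77%. The median difference over the 900 tiles was 1.85 log2 RPM, where RPM scales reads to the depth of the library.

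The summed reads show the same contrast by library. Per kb of the interval, the naive libraries had 1.84 and 1.73 RPM and the primed libraries 0.423, 0.43 and 0.462 RPM, so that the groups did not overlap. Depth did not follow the cell type, with 21785478 and 6743808 reads in the naive libraries and 8853586, 7892016 and 26596514 in the primed ones. An empty tile stands at the value of 0.9 reads, from -2.91 to -4.89 log2 RPM depending on the depth of the library, so differences of nearly empty tiles depend on that setting.

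262 of the 900 tiles had more than 0 log2 RPM in at least 2 libraries. Of these, 207 were called higher in naive PSCs and 0 lower, where both limma and edgeR found 0 lower also at an unadjusted p under 0.05. A filter of this kind passes tiles through the cell type in which they are high, and 26.1% of all tiles that passed were called higher and 26.0% lower, so these counts are given for completeness. When 3 libraries had to pass, which needs at least 1 primed library above 0, 11 tiles of the interval were called higher. Of all tiles that passed this stricter filter, 5.51% were called higher. How many tiles of the interval passed it is not given here, so nothing is read from this count.

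**Figure D3:**
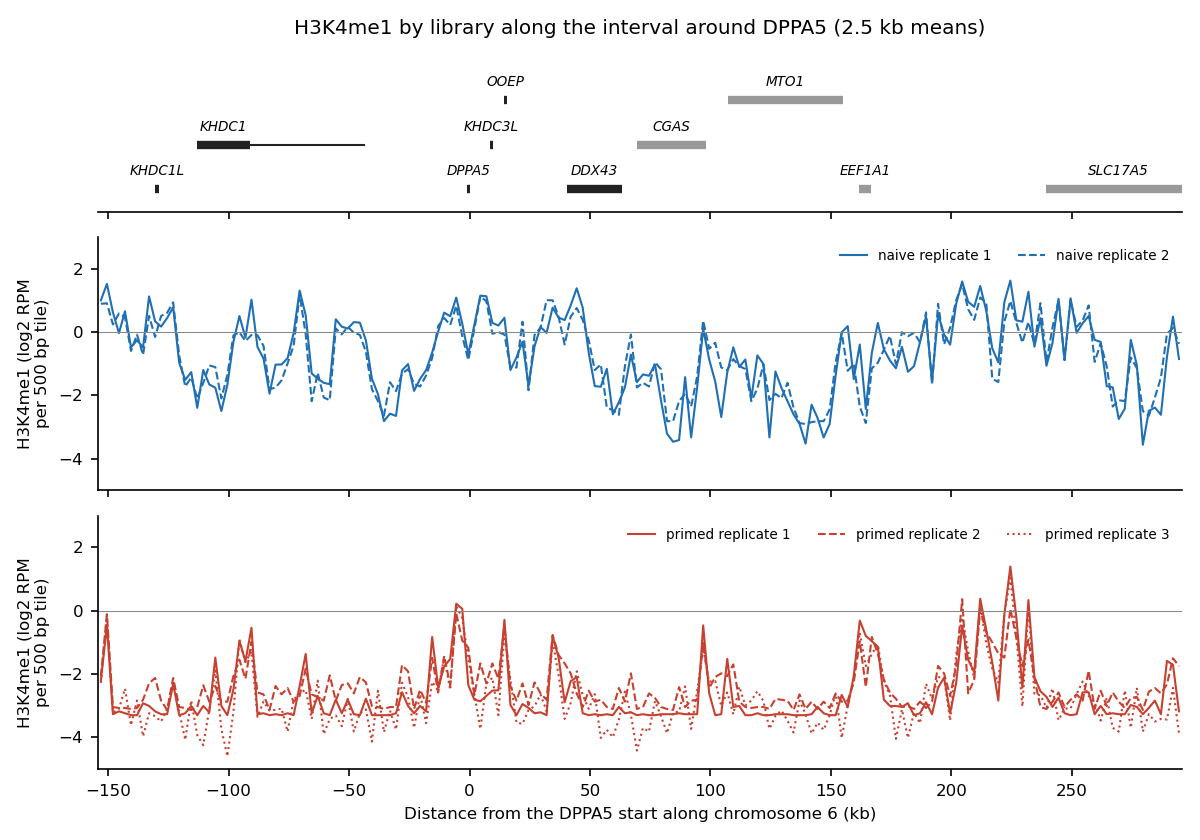
H3K4me1 in log2 RPM per 500 bp tile, averaged over 2.5 kb, against the distance from the *DPPA5* start in kb, with naive libraries in the middle panel and primed libraries in the lower one. Both naive libraries stay near 0 over *KHDC1L*, the stretch from *DPPA5* to *DDX43* and the region before *SLC17A5*. Over much of the interval the primed libraries lie near -3 with short peaks, among them one just to the left of *DPPA5*. They are higher between *EEF1A1* and *SLC17A5*, with means of -1.85, -1.86 and -1.93.

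In the fit with no filter, the 424 tiles called higher formed 88 runs, 22 of which had at least 5 tiles. The longest, 58 tiles or 29 kb (chr6:73205001-73234000), covered *KHDC1L* whole, and held 1696 and 515 naive reads against 31, 47 and 209 primed reads. The second, of 13.5 kb (chr6:73297501-73311000), ended at the upstream start of *KHDC1*, and the third, of 11 kb (chr6:73602001-73613000), included the *SLC17A5* fragments contacted by the *DPPA5* and *KHDC3L* bait. Between *DPPA5* and *KHDC3L*, 15 of 16 tiles were higher in naive PSCs in the same fit, with library means of 0.85 and 0.72 in naive PSCs and -2.75, -2.11 and -2.90 log2 RPM in primed PSCs. From *OOEP* to *DDX43* it was 32 of 50 tiles, and along *DDX43* 25 of 45. Over the whole stretch from *DPPA5* to the end of *DDX43*, 79 of 129 tiles were higher, compared with 345 of 771 in the rest of the interval.

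Against this setting, the *DPPA5* gene itself differed little. None of its 3 tiles was called in either fit, and their library means were -1.19 and -1.28 log2 RPM in naive PSCs and -2.15, -0.73 and -1.07 in primed PSCs, so that the groups overlapped. The tile at its start held 16 and 8 naive reads against 4, 9 and 12 primed reads, a depth-scaled ratio of 1.46 (95% counting interval 0.798 to 2.66). None of the 3 tiles of *OOEP* was called either, but its groups did not overlap, with means of 0.27 and -0.56 against -0.84, -0.85 and -0.99 log2 RPM. Its start tile held 32 and 4 naive reads against 3, 3 and 8 primed reads, a ratio of 3.91 (2.06 to 7.84). At the tile of the *KHDC3L* start, 44 and 11 naive reads stood against 0, 1 and 12 primed reads, a ratio of 6.43 (3.47 to 12.8), and at that of *DDX43* 26 and 9 against 3, 4 and 3, a ratio of 5.32 (2.58 to 12). At the *KHDC1L* start it was 23 and 5 naive reads against 1 primed read in all, which is too few to give the ratio closely (42.5, interval 7.03 to 1739). At the *KHDC1* start, with 47 and 4 naive reads and 13, 7 and 22 primed reads, the ratio was 1.84 (1.2 to 2.84), but naive replicate 2 lay below every primed library in log2 RPM.

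The 5 tiles with the largest difference among those called after the filter lay at chr6:73358001-73358500 and chr6:73358501-73359000, between *DPPA5* and *KHDC3L*, at chr6:73397001-73397500 in an intron of *DDX43*, at chr6:73599501-73600000 in an intron of *SLC17A5*, and at chr6:73542001-73542500 in an intron of *EEF1A1-AS1*. Their differences ran from 4.49 to 4.79 log2 RPM. The first held 82 and 23 naive reads against 1, 4 and 1 primed reads. They were chosen by this difference, so no test is given for them. No tile was called lower in naive PSCs, so no tile is named for that direction.

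At the promoters, taken as the tiles within 1000 bp of the start and fitted over all 20033 protein-coding genes with no filter, 4 of the 6 members were higher in naive PSCs, against 6.91% of all promoters. None was lower, against 4.59%. These shares are for the adjusted p. All 6 were higher at an unadjusted p under 0.05 in limma, but the share of all promoters at that threshold is not given here. The median difference of the 6 was 1.79 log2 RPM, and that of all promoters 0.10.

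*KHDC1L* had the largest difference. It stood at 0.22 and 0.21 log2 RPM in naive PSCs and at -3.24, -2.64 and -3.93 in primed PSCs, a difference of 3.48 (SE 0.44, adjusted p = 2.47e-12). Of the 1952 stretches of 50 bases in this window, 10.2% occur again on chromosome 6, so part of its reads could come from a copy. For *DPPA5*, *KHDC3L*, *OOEP* and *DDX43* none occurred again on chromosome 6, and for *KHDC1* 1 did. Copies on other chromosomes were not searched for.

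*KHDC3L* stood at 0.42 and 0.57 log2 RPM in naive PSCs and at -2.95, -2.61 and -2.37 in primed PSCs, a difference of 3.14 (SE 0.42, adjusted p = 2.46e-11). *DDX43* stood at 0.44 and 0.10 against -1.88, -1.46 and -2.78, a difference of 2.31 (SE 0.42, adjusted p = 2.3e-06). For both genes the cell types were far apart, and the calls held in all 8 alternatives.

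*DPPA5* stood at -0.35 and -0.44 log2 RPM in naive PSCs and at -2.15, -0.97 and -1.90 in primed PSCs. The groups did not overlap, and the difference was 1.28 (SE 0.42, adjusted p = 0.0242). The call was lost without naive replicate 1 (difference 1.23, adjusted p = 0.244), naive replicate 2 (1.32, 0.175), primed replicate 1 (1.04, 0.0862) or primed replicate 3 (1.16, 0.0986), and over all alternatives the difference ran from 1.04 to 1.63. *OOEP*, at 0.02 and -0.72 against -1.56, -1.50 and -1.29, did not pass the test (difference 1.10, SE 0.42, adjusted p = 0.0636). Nor did *KHDC1*, at 0.96 and -0.18 against -0.22, -0.84 and -0.78 (difference 1.00, SE 0.40, adjusted p = 0.0845), although the naive values of both genes lay above all primed values.

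**Figure D4:**
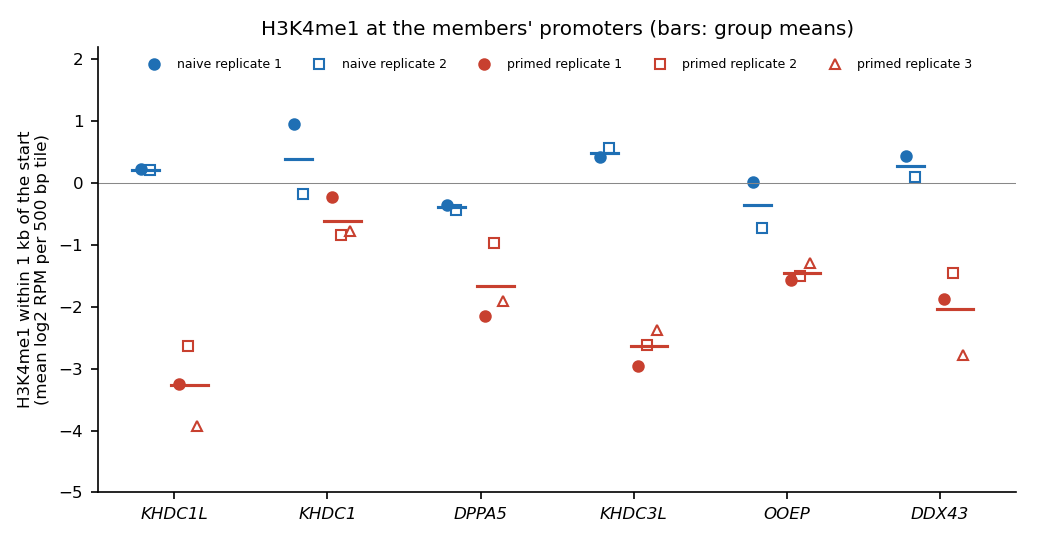
H3K4me1 within 1 kb of the start of each member, in mean log2 RPM per 500 bp tile, with a symbol for each library and bars for the group means. *KHDC1L*, *KHDC3L* and *DDX43* show wide gaps between naive and primed libraries, *DPPA5* and *OOEP* narrower ones, and for *KHDC1* naive replicate 2 and primed replicate 1 nearly meet.

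The 6 neighbouring genes, *KCNQ5*, *CGAS*, *MTO1*, *EEF1A1*, *SLC17A5* and *CD109*, had 0 promoters called by limma in either direction (1 higher and 0 lower at an unadjusted p under 0.05), with differences from -0.27 to 0.69 log2 RPM. So the promoters of *CGAS* and *MTO1*, in the same interval, differed by 0.65 and 0.57 and did not pass the test. Of the 8 genes of the subcortical maternal complex, which includes *KHDC3L* and *OOEP*, 2 were higher in naive PSCs, *KHDC3L* and *PADI6* (difference 1.16, adjusted p = 0.019), and 0 lower (3 and 0 by limma at an unadjusted p under 0.05). Their median difference was 0.83, and of all promoters 6.91% were called higher and 4.59% lower. *NLRP5*, *NLRP2* and *NLRP7* were close to empty in all libraries, and *NLRP2* and *NLRP7*, whose starts lie side by side, share the same tiles. In PCHi-C, *PADI6* lay on an unbaited fragment with 2 naive and 3 primed contacts, *TLE6* had 0 and 1, and *ZBED3* 1 and 1.

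Marker lists were read in the same way, beside 6.91% of all promoters called higher and 4.59% called lower. Of 8 naive markers 1, the placental-type alkaline phosphatase gene *ALPP*, was higher in naive PSCs (difference 2.63, adjusted p = 3.81e-08) and 0 lower (2 higher and 1 lower by limma at an unadjusted p under 0.05). Of 6 trophoblast markers 0 were higher and 1 lower (*TP63*), and 0 and 2 by limma at an unadjusted p under 0.05. Most of these promoters did not pass the test, so H3K4me1 there does not serve as a check of the labels. Over the tiles that passed the filter, the naive libraries correlated with each other at r = 0.835 and the primed ones at 0.674 to 0.864, across tiles, which are not independent. Between cell types r was from -0.307 to -0.181. The filter passes tiles through the cell type in which they are high, which shapes these correlations, so nothing is read from their sign.

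The promoters elsewhere whose 5 library values were nearest to those of *DPPA5*, by Euclidean distance in log2 RPM, were those of *PPP1R14D* (0.26), *THEGL* (0.27), *BRD3OS* (0.30), *FAM234A* (0.31) and *CCNQ* (0.33), none of them on chromosome 6.

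To put both measurements together, H3K4me1 was averaged over HindIII fragments. Of the 77 fragments that overlap the interval and hold the middle of a tile, 49 were higher in naive PSCs in the fit with no filter, against 6.63% of all fragments, and 1 was lower, against 7.90%. The lower one, chr6:73517235-73518488, lies in *EEF1A1*, a gene with many near-identical copies, so its value is uncertain (difference -1.20, adjusted p = 0.0424). 20 fragments of the interval passed the filter, 18 of them with no primed library above 0, so that they passed through the naive libraries alone. 17 of the 20 were called higher, against 28.5% of all fragments that passed, and nothing is read from this count.

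The bait of *DPPA5* and *KHDC3L* stood at 0.45 and 0.35 log2 RPM in naive PSCs and at -2.65, -1.91 and -2.57 in primed PSCs (difference 2.78, adjusted p = 9.19e-09 with no filter). The *OOEP* bait stood at -0.42 and -0.26 against -2.79, -2.29 and -2.71 (difference 2.26, adjusted p = 7.02e-06). The *DDX43* fragment stood at 0.73 and 0.33 against -2.51, -2.26 and -2.67 (group means 0.53 and -2.48, adjusted p = 3.81e-10). In all of them the groups were well apart, whereas those of the *DPPA5* gene overlapped.

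13 fragments in the interval, other than these baits, were contacted by the *DPPA5* and *KHDC3L* or the *OOEP* bait in naive PSCs. 9 of them were higher in naive PSCs, with a median difference of 2.61 log2 RPM. Among the 62 other fragments of the interval 38 were higher, with a median difference of 1.53. The difference between these groups of fragments was not tested.

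The contacted fragments differed from each other in what they carried in primed PSCs. The *SLC17A5* fragments 249.2 and 251.1 kb from the *DPPA5* start stood at 1.14 and 0.94, and at 0.49 and 0.55 log2 RPM, in naive PSCs. In primed PSCs their values were between -3.30 and -2.48, with differences of 3.99 and 3.48.

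The fragments nearest to *DPPA5* were different. The fragment chr6:73346815-73349571, contacted by both baits in naive PSCs with 192 and 77 reads, stood at 1.08 and 0.76 log2 RPM in naive PSCs and at -0.04, -0.23 and -0.02 in primed PSCs (difference 1.02, adjusted p = 0.107 with no filter). The fragment chr6:73349572-73353242, which had the highest score of the *OOEP* bait, stood at 0.21 and -0.09 against -0.19, -1.05 and -0.28 (difference 0.57, adjusted p = 0.561 with no filter). Both thus carried the mark in primed PSCs too, where neither had a listed contact with a member bait. The highest tile of the first held 59 and 10 naive reads and 9, 12 and 48 primed reads, a difference of 0.51 that did not pass the test (adjusted p = 0.719), and the groups overlapped. Its middle 300 bases (chr6:73348601-73348900, plus strand, between genes) held none of the 5 motifs. Of the same windows of all 900 tiles, 7.56% held the GC box, 12% the SOX motif and 24.3% the TATA box.
Contacted tile beside *DPPA5*: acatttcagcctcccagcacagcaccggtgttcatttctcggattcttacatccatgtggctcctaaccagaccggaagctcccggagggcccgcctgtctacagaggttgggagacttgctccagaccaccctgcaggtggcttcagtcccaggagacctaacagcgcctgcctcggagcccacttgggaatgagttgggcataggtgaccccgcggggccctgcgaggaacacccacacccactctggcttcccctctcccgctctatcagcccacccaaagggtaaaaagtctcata

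Among the partners of the *DPPA5* and *KHDC3L* and the *OOEP* baits, the bait within *MTO1* and *EEF1A1* had the least H3K4me1 in naive PSCs, at -3.10 and -2.91 log2 RPM in naive PSCs and -3.28, -3.09 and -3.46 in primed PSCs (difference 0.28), close to empty in both. The upstream start of *KHDC1*, a partner of the *OOEP* bait, stood at 0.58 and 0.12 against -2.91, -1.79 and -2.90 (difference 2.88, adjusted p = 2.29e-09 with no filter). This is wider than the difference at the downstream start of *KHDC1*, whose bait stood at 0.32 and -0.30 against -0.95, -1.58 and -1.27 (difference 1.28, adjusted p = 0.0236 with no filter). The difference between both starts was not tested. Of the partners of all member baits, 1 was lower in naive PSCs, the fragment chr6:72421254-72424253 that the downstream *KHDC1* bait contacted in primed PSCs alone. It stood at -4.50 and -2.83 log2 RPM in naive PSCs and at -0.90, -1.15 and -1.29 in primed PSCs (difference -2.55, adjusted p = 4.5e-07 with no filter).

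**Figure D5:**
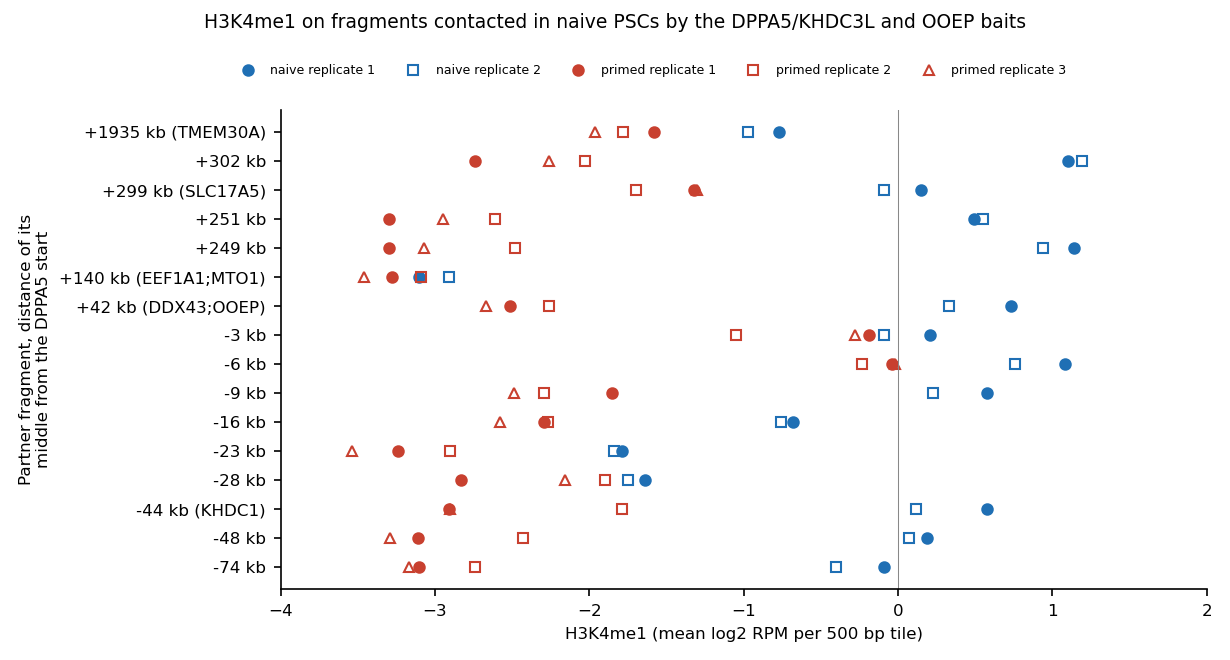
H3K4me1 in mean log2 RPM per 500 bp tile on the fragments contacted in naive PSCs by the *DPPA5* and *KHDC3L* or the *OOEP* bait, by the distance of their middle from the *DPPA5* start, with a symbol for each library. Naive libraries lie above the primed ones on all fragments but that at +140 kb. The gap is widest at +249 kb, small at -3 and -6 kb where the primed libraries also carry the mark, and the fragment at +140 kb is close to empty in both cell types.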

How the data were processed

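PCHi-C and Hi-C interactions and H3K4me1 CUT&RUN signal of naive and primed H9 NK2 PSCs were analysed on GRCh38. For PCHi-C, the authors mapped reads with HiCUP and combined 2 replicates per cell type in CHiCAGO, and the deposited lists give a score and a read number per pair of fragments. For Hi-C, the authors deposited raw counts of read pairs between 100 kb bins. Pairs with few contacts within a chromosome are missing from the naive file, but all pairs used here were listed in both. For H3K4me1, the authors used Trim Galore 0.5.0 and Bowtie2 2.3.2 for trimming and mapping, and the deposited SeqMonk table gives log2 RPM for each 500 bp tile. Whether reads with several matches were kept is not given in the sources used here. A read can count in neighbouring tiles. Groups and replicate numbers follow the labels. These call the samples replicates, and p-values measure the spread between them.

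Interactions listed from both ends were merged, with the higher score kept. HindIII fragments were computed from GRCh38, and 100% of 88413 listed fragments had the same ends. Baits were taken from the strand mark that 15982 fragments carry, and 0 fragments without it were listed first in a pair. Promoters and canonical starts came from GENCODE release 44. Tiles, fragments (the mean of tiles whose middle lies inside) and promoters (within 1000 bp) were compared with limma 3.58.1 (lmFit, eBayes with trend, R 4.3.3) over the whole genome, with Benjamini-Hochberg adjustment and 0.05 as the threshold. Where a filter was used, 2 libraries or more had to exceed 0 log2 RPM, and fits with no filter are given beside it. Scripts were tested on simulated data. All H3K4me1 values (100%) were whole reads within 1% of the value, and edgeR 4.0.16 on these reads, with 1 common dispersion, was an alternative. It called 136064 tiles higher and 131083 lower. Ratios of counts have exact 95% Poisson intervals. Counting and drawing used Python 3.11.15 with pandas 2.3.3, scipy 1.17.1, numpy 2.4.6 and matplotlib 3.10.9.

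The members, the gene lists and the tests were chosen with earlier results of these data known. The rule for named genes took all members, their baited fragments and all partners, other baited genes of the interval, the tile at each start, the 5 tiles with the largest called difference in each direction, and the 5 promoters elsewhere nearest to *DPPA5*. The expected gene names on the baits were absent, so the rule was applied by position. The primed marker list is not reported here.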

Additional observations from a re-analysis of the deposited data

How the results depend on the processing

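The direction of the H3K4me1 difference at all 6 member promoters was kept in every alternative run. Percentages in brackets are the shares of all promoters, tiles or fragments called in the same fit. The number of member promoters called higher (4, 6.91%) was 6 with a window of 2500 bp, where 25.5% of all promoters were called. It was 4 (6.24%) after centring the libraries on their medians, and 3 to 4 (4.33 to 8.43%) when 1 primed library was left out. *OOEP* passed the test with the wider window (1.10, adjusted p = 0.00256) and *KHDC1* with the wider window (1.84, 1.56e-07) and without primed replicate 1 (1.20, 0.0239). The tiles called higher (207, 26.1%) were 424 (4.18%) with no filter and 11 (5.51%) when 3 libraries had to pass. They were 190 to 220 (19.7 to 29%) without 1 primed library. Quantile normalisation, centring, a fit without trend and edgeR gave 209 to 218 (25.5 to 29.3%). The tiles called lower (0) were 0 to 1 without 1 library, the 1 being found without naive replicate 1. The fragments called higher (17, 28.5%) were 49 (6.63%) with no filter, 32 (23.5%) by their highest tile, and 15 to 19 (23.4 to 32.5%) without 1 primed library. Fewer tiles, fragments and promoters were called higher when either naive library was left out. Where 1 naive library remained, it was assumed to vary like the primed ones.

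The cell types share replicate numbers, and libraries of the same number deviated together by a correlation of 0.035 and 0.031 alone, so the numbers were not taken to pair them. With the replicate block, 194 tiles (21.4% of all tiles that passed), 15 fragments (23.7%) and 5 promoters (6.3%) were called higher. *OOEP* was among these promoters (adjusted p = 0.0351 in limma).

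The contacts of the member baits, 23 naive and 3 primed, were 5 and 0 from a score of 7 up, 1 and 0 from 10 up, and 21 and 2 at 10 reads or more. The shared contacts (2) were 4 when both ends could lie within 10 kb. The Hi-C ratio of 0.905 was 0.883 when scaled by all chromosomes and 0.819 when scaled by contacts between chromosomes. At the depth of these libraries, 0 log2 RPM in a tile stands for 6.74 to 26.6 reads.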

Other observations

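Joined through all interactions of both lists, the *KHDC1*, *DPPA5*, *OOEP* and *DDX43* fragments belonged to 1 connected set of 238 fragments on chromosome 6, from 72389211 to 75675499. This set had 212 naive and 222 primed interactions, 119 of them shared. Thus the surplus of naive contacts at the member baits was not found in the set as a whole. Among the neighbouring promoters, *CD109* had 1 naive and 8 primed contacts and *KCNQ5* 19 and 27, whereas *SLC17A5*, the gene of a lysosomal sialic acid exporter, had 8 and 3.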
